A study of Rattus norvegicus with 4 samples.

Results

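The genes described here are a set of rat genes for metal binding and defence against oxidants, chosen by name and by Ensembl identifier and not by any measured value. Of 7 chosen identifiers, 6 were found among 20174 gene probes. They are Hmox1 (ENSRNOG00000014117), Nqo1 (ENSRNOG00000012772), Gclc (ENSRNOG00000006302), Gclm (ENSRNOG00000013409), Sod1 (ENSRNOG00000002115) and Cat (ENSRNOG00000008364), each with 1 spot per array. The seventh, the metallothionein gene Mt1, was not analysed here, so nothing below measures metallothionein or tells whether the added zinc entered the cells. The identifiers were paired with gene names by the rule that chose them, and the reference table used here holds no Ensembl identifiers that could check the pairing.

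The cells were Rat-1·RasValA1, a stable rat embryonic fibroblast line in which HrasG12V, an activated form of the small GTPase Hras, is under a promoter induced by IPTG. All cultures were kept for 24 h in serum-free DMEM with bovine serum albumin, and the selection drugs G418 and hygromycin B were withdrawn with the serum. There were 4 conditions: no addition, 5 mM IPTG, 3 µM ZnCl2, and 5 mM IPTG with 3 µM ZnCl2. Each was measured on 1 array, so no condition has a replicate. All groups carried the inducible allele, and cells without it were not analysed here, so an effect of IPTG itself and of HrasG12V cannot be told apart. The Hras probe and fibroblast markers were not identified on the array, and neither induction nor cell identity was checked.

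Cells meet oxidants and reactive metals with 2 connected systems. Metallothioneins bind zinc and are switched on by the zinc-sensing factor Mtf1. The factor Nrf2, held back by Keap1 until oxidants or electrophiles modify it, switches on genes with an antioxidant response element, among them Hmox1, Nqo1, Gclc and Gclm. Sod1, which converts superoxide to hydrogen peroxide, and Cat, which breaks hydrogen peroxide down, are abundant in unstressed cells too. Sod1 protein itself binds copper and zinc.

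Between 66.7% and 72.4% of gene probes were detected on an array, that is, above the mean of the blank spots plus 2 SD. All 6 genes were detected on all 4 arrays, with a spot signal at least 77.7 blank SDs above the blank mean. Levels are given as normalised signals: the blank mean was subtracted, 50 was added and the arrays were quantile normalised. The added 50 damps fold changes of dim probes. The SD of the log2 signal over 24 repeat spots of a bright control sequence was 0.066 to 0.16 for the first control and 0.16 to 0.22 for the second. From these, 1 SD of a log2 difference between 2 arrays was 0.22, which covers spot-to-spot error within an array but not the variation between cultures. On the array with both additions 24.0% of spots carrying no probe exceeded its detection limit, beside 16.6% to 17.9% on the others. What part this has in the comparisons that use that array was not tested. A gene was counted as apart where 2 arrays differed at least 1.5-fold. Counts are set beside the share of all 14254 probes detected on at least 2 arrays that met the same limit. These probes include dim ones, and no share given below was matched to the genes by signal level.

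**Figure D1:**
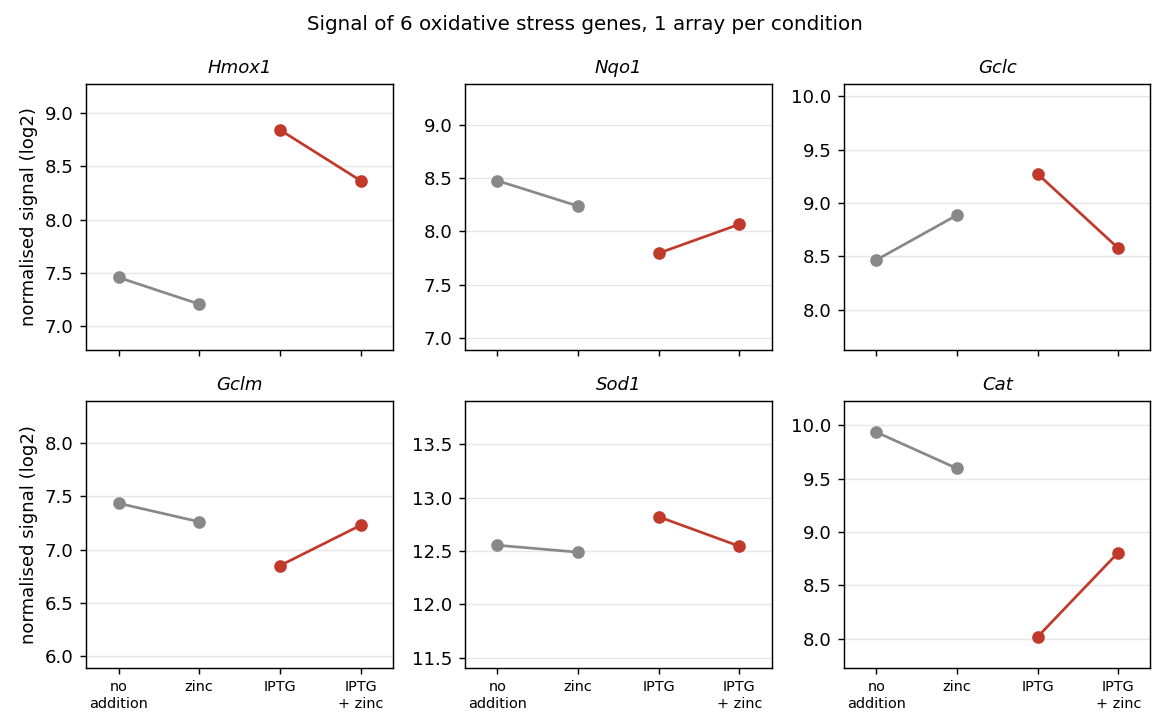
Normalised signal (log2, vertical axis) of each gene on the arrays without addition, with zinc, with IPTG and with both; each point is 1 array, lines join arrays that differ by zinc, and every panel spans the same log2 width. Hmox1 lies higher and Cat lower on both IPTG arrays, while Sod1 stays within a 1.26-fold range.

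Hmox1, which encodes the inducible haem oxygenase that degrades haem to biliverdin, iron and carbon monoxide, rose with IPTG. Its normalised signal was 176 without addition, 459 with IPTG, 148 with zinc and 330 with IPTG and zinc. Both IPTG arrays were above both arrays without IPTG. Without zinc the arrays without and with IPTG differed 2.61-fold, and 1.33% of all probes were at least as far higher. On the zinc arrays they differed 2.23-fold, and 1.46% of probes were at least as far higher. The mean log2 difference over the 2 pairs was 1.27 ± 0.23 (SE), with an adjusted p of 0.0147 in the additive limma fit over all probes, which takes the pairs without and with zinc as repeats of the IPTG difference. The median log2 IPTG difference of the neighbouring probes on the array was -0.19 and 0.12 in the same pairs. With the local background subtracted instead, the difference with zinc fell to 1.55-fold and the adjusted p became 0.0732. In the authors' deposited table the normalized intensity of Hmox1 was 59.5 without addition, 240.2 with IPTG, and 41.5 and 139 on the zinc arrays without and with IPTG.

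Cat, which encodes catalase, fell with IPTG. Its normalised signal was 979 without addition, 259 with IPTG, 774 with zinc and 448 with IPTG and zinc. Both IPTG arrays were below both others, and the array with IPTG alone was the lowest. The difference was 3.78-fold lower without zinc and 1.73-fold lower with zinc. Only 0.463% of probes were at least as far lower in the first pair, and 3.91% in the second. The mean log2 difference was -1.35 ± 0.32 (SE), with an adjusted p of 0.0418 in the same limma fit. The call was lost with median scaling (adjusted p = 0.0755) and in the authors' deposited table (0.0953), both with the direction kept. With the local background the 2 differences were nearly equal, at 4.00-fold and 3.67-fold lower.

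Gclc and Gclm encode the catalytic and the modifier subunit of glutamate-cysteine ligase, the enzyme of the first step of glutathione synthesis. Their promoter sequences, 250 bases before to 50 bases after the gene start, are shown because these genes code for 2 parts of 1 enzyme but differed in opposite directions with IPTG alone. The Cat promoter is shown with them as that of the gene with the widest range. The sequences are from RefSeq (build GRCr8), where 5 of the 6 genes had an entry and Hmox1 had none. Capitals mark a match to the core of the antioxidant response element, TGACNNNGC, on either strand.
Gclc (chr8:87510226-87510525, plus strand): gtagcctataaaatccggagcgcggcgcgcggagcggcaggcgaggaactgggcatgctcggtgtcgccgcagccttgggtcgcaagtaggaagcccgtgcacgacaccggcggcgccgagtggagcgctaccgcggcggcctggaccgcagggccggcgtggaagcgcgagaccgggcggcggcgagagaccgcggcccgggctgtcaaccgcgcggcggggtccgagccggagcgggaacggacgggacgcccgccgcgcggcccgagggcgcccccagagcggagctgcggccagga
Gclm (chr2:213031885-213032184, plus strand): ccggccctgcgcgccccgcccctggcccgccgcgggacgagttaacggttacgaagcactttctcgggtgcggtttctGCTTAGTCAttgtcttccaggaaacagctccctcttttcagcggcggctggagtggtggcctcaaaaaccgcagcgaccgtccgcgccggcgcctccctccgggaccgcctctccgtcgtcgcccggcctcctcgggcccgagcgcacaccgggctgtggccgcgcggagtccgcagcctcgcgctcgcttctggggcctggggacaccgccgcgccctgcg
Cat (chr3:110329477-110329776, minus strand): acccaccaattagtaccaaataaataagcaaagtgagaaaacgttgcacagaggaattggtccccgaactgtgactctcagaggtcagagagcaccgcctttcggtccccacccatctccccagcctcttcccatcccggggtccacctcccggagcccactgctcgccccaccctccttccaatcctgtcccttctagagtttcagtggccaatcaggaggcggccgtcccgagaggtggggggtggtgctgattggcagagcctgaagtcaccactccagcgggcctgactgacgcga

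The only match among these 3 promoters is in Gclm. It begins 172 bases before the start and reads on the other strand. Of 33469 rat promoters of this length, 12.1% held this core. The AP-1 letters TGANTCA, which can overlap the antioxidant core, were in 7.33% of all promoters and in none of the 5. The core of the metal response element, TGCACNC or TGCGCNC on either strand, was in 24.2% of all promoters and occurred at 2 places in Gclm and in none of the other 4. These are matches of letters and not measured binding sites. Bases outside this window were not searched, so a promoter without a match may belong to a gene with the element elsewhere.

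Gclc had its highest normalised signal, 619, with IPTG alone. It was 354 without addition, 474 with zinc and 382 with both. IPTG alone was thus 1.75-fold above no addition, while with zinc the IPTG array was 1.24-fold below its partner. The array with IPTG alone was the highest, and the other 3 lay within a 1.34-fold range. The mean log2 IPTG difference, 0.25 ± 0.31 (SE), did not pass the limma fit (adjusted p = 0.704). This fit counts any dependence of the IPTG difference on zinc as error. In the authors' deposited table the intensity of Gclc was 142 without addition, 338 with IPTG, 168 with zinc and 165 with both.

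Gclm was lowest where Gclc was highest. Its normalised signal was 173 without addition, 115 with IPTG, 153 with zinc and 149.9 with IPTG and zinc. The array with IPTG alone was lower than that without addition by just the 1.5-fold of the limit itself, and the arrays with zinc differed 1.02-fold. The mean log2 IPTG difference was -0.31 ± 0.22 (SE; adjusted p = 0.441, limma). The 2 subunits therefore differed from the culture without additions in opposite directions with IPTG alone, and neither reached 1.5-fold with IPTG in the presence of zinc.

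Nqo1 encodes a quinone reductase that is widely used as a readout of Nrf2. It followed the order of Gclm: its normalised signal was 356 without addition, 222 with IPTG, 302 with zinc and 268 with both. Both IPTG arrays were below both others. The difference was 1.60-fold lower without zinc but only 1.13-fold lower with zinc, and the mean log2 difference of -0.42 ± 0.25 (SE) did not pass the limma fit (adjusted p = 0.348). With the local background, Nqo1 was 1.45-fold higher with IPTG in the presence of zinc, a turn of direction. In the authors' deposited table it was 1.07-fold higher there, where the median probe was higher by 0.29 on the log2 scale.

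Sod1, the cytosolic superoxide dismutase, varied least of the 6 with the blank mean as background. Its normalised signal was 6013 without addition, 7235 with IPTG, 5747 with zinc and 5974 with IPTG and zinc. With IPTG it was 1.20-fold higher in the absence of zinc and 1.04-fold higher in its presence, a mean log2 difference of 0.16 ± 0.18 (SE; adjusted p = 0.659, limma). Subtracting the local background turned the direction in the absence of zinc, to 1.47-fold lower, and in its presence Sod1 was 1.89-fold higher, past the limit.

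**Figure D2:**
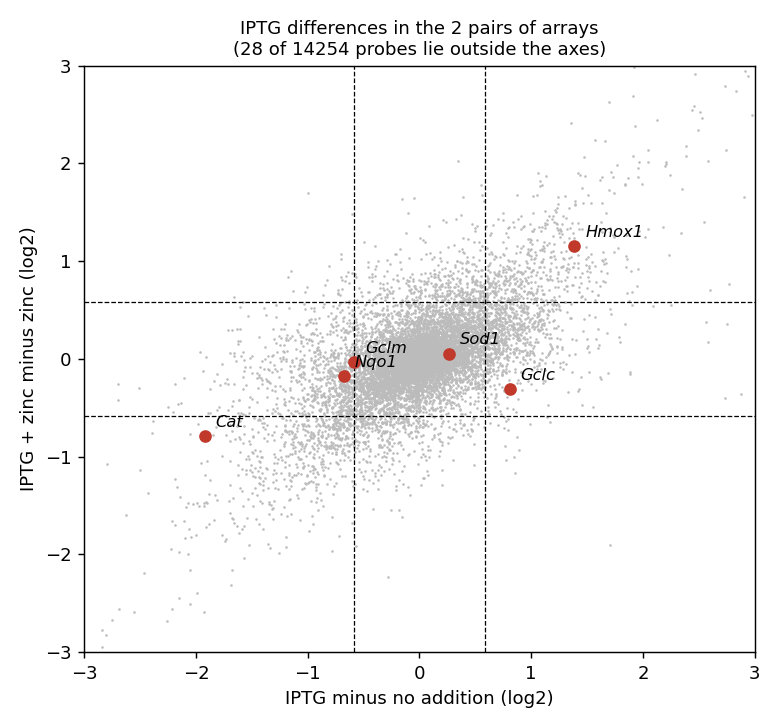
Log2 IPTG difference without zinc (horizontal) and with zinc (vertical) for the 6 genes (red, labelled) and all 14254 probes tested (grey); dashed lines mark 1.5-fold and 28 probes lie outside the axes. Hmox1 and Cat are past the limit in both pairs, Gclc, Gclm and Nqo1 only without zinc.

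Counted over the set, 5 of 6 genes were at least 1.5-fold apart with IPTG in the absence of zinc, 2 higher and 3 lower. This count was 4 of 6 without background subtraction, in the authors' deposited table and after subtraction of the median of each array block. The share of all probes was not computed for these settings. In the deposited table the median probe was itself higher by 0.34 on the log2 scale in this pair. With a limit of 2-fold the count was 2 of 6. These were Hmox1, 2.61-fold higher, and Cat, 3.78-fold lower, and 1.33% and 0.463% of all probes were at least as far in the same direction. The share of all probes past 2-fold itself is not given here. Of all probes 19.3% met the 1.5-fold limit in either direction, 9.39% higher and 9.87% lower. In the presence of zinc 2 of 6 genes met it, 1 higher and 1 lower, beside 13.6% of all probes (6.69% higher, 6.89% lower). Only Hmox1 was at least 1.5-fold higher in both pairs, as were 3.87% of all probes. Only Cat was at least 1.5-fold lower in both, as were 4.17%. The limma fit called 1327 probes for IPTG (9.31%), 4.15% higher, with Hmox1 among them, and 5.16% lower, with Cat among them. Both calls rest on a variance prior with an intensity trend: with a constant prior limma called 0 probes, and the adjusted p was 0.122 for Hmox1 and 0.245 for Cat. The 6 genes had a median log2 IPTG difference of -0.16 in the absence and -0.10 in the presence of zinc, where all probes had 0.01 and 0.00. In size, regardless of direction, their median difference was 0.74 and 0.24, beside 0.18 and 0.14 for all probes. The 6 genes were brighter than most probes. Their lowest spot signal was 130 (Gclm, IPTG alone), where the median gene probe had 77.6 to 82.8 on the 4 arrays. The added constant damps fold changes of dim probes, and no share or median of probes of like signal was computed. What part brightness has in these comparisons was therefore not tested. The 4 genes known as Nrf2 targets were split: Hmox1 and Gclc were higher and Nqo1 and Gclm lower with IPTG alone.

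For each of the 6 genes the IPTG difference was smaller in size with zinc than without. This held for 55.9% of all probes. The change in the IPTG difference was -1.12 for Gclc and 1.13 for Cat on the log2 scale, and 1.02% and 1.73% of probes went at least as far in the same direction. It was 0.55 for Gclm, 0.51 for Nqo1, -0.23 for Hmox1 and -0.21 for Sod1, all under 1.5-fold. Some of these depended on the processing: Gclm passed 1.5-fold with the local background (0.77), an offset of 16 (0.73), median scaling (0.63) and the authors' deposited table (0.86), and Nqo1 with the local background (1.13), median scaling (0.65) and that table (0.66). With median scaling the IPTG difference of Sod1 was not smaller with zinc. With the local background subtracted, the change for Cat was small (4.00-fold and 3.67-fold lower), and Sod1 had the larger IPTG difference in the presence of zinc, 1.89-fold higher, beside 1.47-fold lower in its absence. Such a change cannot be tested with 1 array per condition, where a zinc effect and a single deviating culture or array cannot be told apart.

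With zinc alone none of the 6 genes was 1.5-fold apart from the culture without additions. That limit was met by 0.744% of all probes, 0.505% higher and 0.239% lower. Gclc was 1.34-fold higher with zinc, and 1.44% of probes were at least as far higher. The other 5 were lower, by 1.27-fold for Cat, 1.19-fold for Hmox1, 1.18-fold for Nqo1, 1.13-fold for Gclm and 1.05-fold for Sod1. The direction turned with the local background for 3 of these 5, to 1.07-fold higher for Cat, 1.27-fold for Nqo1 and 1.93-fold for Sod1, and Sod1 was then past the limit. Neighbouring probes on the array were those within 3 columns and 3 rows. In the pair without IPTG their median log2 zinc difference had the same sign as that of the gene for all 6 genes. It was -0.21 around Cat, -0.20 around Hmox1, -0.12 around Gclm, -0.06 around Sod1, -0.02 around Nqo1 and 0.15 around Gclc. The genes' own values were -0.34, -0.25, -0.17, -0.07, -0.24 and 0.42. After subtraction of block medians the genes were at -0.32, -0.19, -0.16, -0.06, -0.23 and 0.36 in the same order. In the zinc pair with IPTG the signs matched for Cat, Gclc and Gclm only. There Hmox1 was at -0.48 and its neighbours at 0.21, Nqo1 at 0.27 and -0.005, and Sod1 at -0.28 and 0.03. How often other probes share the sign of their neighbours was not tested.

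In cells given IPTG, zinc was followed by wider differences. Cat was 1.73-fold higher and Gclc 1.62-fold lower with zinc, so that 2 of 6 genes passed the limit, beside 9.69% of all probes (5.27% higher, 4.42% lower). After subtraction of the local background Gclc was 1.63-fold lower but Cat only 1.16-fold higher. Hmox1 was 1.39-fold and Sod1 1.21-fold lower, while Gclm was 1.30-fold and Nqo1 1.21-fold higher. These differences share the array with IPTG alone with the first IPTG comparison, so a high or low value there enters both with opposite sign. No gene of the set was past the limit in the same direction in both zinc pairs. Among all probes, 0.0351% were higher and 0.00702% lower in both.

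**Figure D3:**
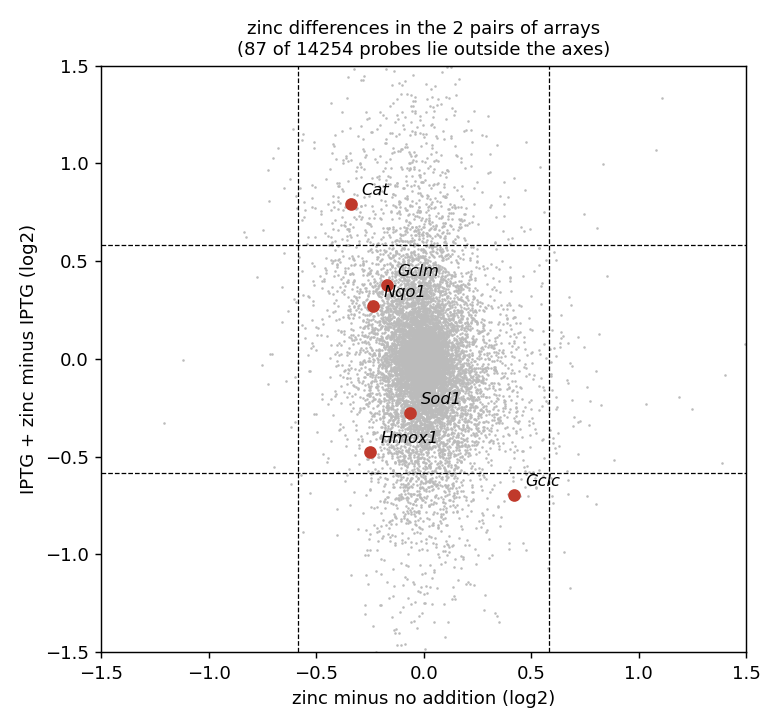
Log2 zinc difference without IPTG (horizontal) and with IPTG (vertical) for the 6 genes (red, labelled) and all probes tested (grey); dashed lines mark 1.5-fold and 87 probes lie outside the axes. All 6 genes are within the limit without IPTG, and Cat and Gclc are past it, in opposite directions, with IPTG.

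The limma fit called 0 of 14254 probes for zinc (308 had an unadjusted p under 0.05), and the 6 genes had an adjusted p of 1 each. Their mean log2 zinc differences were -0.36 ± 0.23 (SE) for Hmox1, 0.23 ± 0.32 for Cat, -0.17 ± 0.18 for Sod1, -0.14 ± 0.31 for Gclc, 0.10 ± 0.22 for Gclm and 0.02 ± 0.25 for Nqo1. Hmox1 and Sod1 had lower values with zinc in both pairs, Sod1 not with the local background. A p above the threshold does not show that zinc left these genes unchanged.

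Sod1 and Nqo1 lay in the same block of the array, 3 columns and 1 row apart, and their zinc values depended on the background that was subtracted. The local background of the Sod1 spot was 78.5% of its signal without addition, 88.4% with IPTG, 52.6% on the zinc array and 20.5% on that with both additions. For Nqo1 these shares were 78.2%, 88.3%, 63.9% and 39.8%. At both spots the local background was thus a smaller share of the signal on the 2 zinc arrays. Subtracting it put Sod1 1.93-fold above its partner on the array with zinc alone and 5.35-fold above on the array with both additions. Subtracting the blank mean had put it 1.05-fold and 1.21-fold below. Nqo1 came to lie 1.27-fold and 2.79-fold above its partners. The Sod1 spot signal itself was 5985 without addition, 4980 with zinc, 7481 with IPTG and 6535 with both, lower on each zinc array than on its partner.

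**Figure D4:**
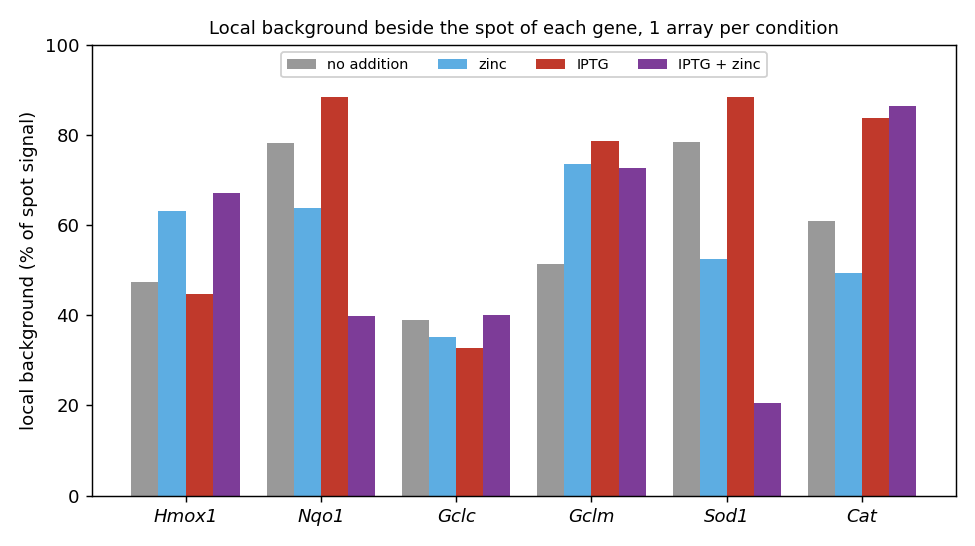
Local background as a percentage of the spot signal (bars from 0) for each gene on the 4 arrays, 1 bar per array. For Sod1 and Nqo1 the share is lowest on the array with both additions, at 20.5% and 39.8%, whereas for Gclc it stays between 32.8% and 40.0% on all 4 arrays.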

How the data were processed

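Per the labels' protocols, RNA extracted with TRIzol was amplified with amino allyl nucleotides and labelled with Cy5. Arrays were scanned in 1 channel at 3 gains, per the file headers. For each of 27456 spots the deposited files list the median intensity of the spot and of its surroundings (the local background), not scaled between arrays. A normalized intensity, linear and not logged, is in the authors' deposited table; set against the scanner values, each column was a straight line that reached 0 at the blank mean, with a median of 25.0 over listed probes. What was done to make it is not stated.

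Earlier results of these data were known when the members, lists and tests were chosen. The members were named by identifier, with no measured value as a criterion. The mean of the 1344 blank spots (5 percent trimmed at each end) was subtracted (floor 1), 50 added, log2 taken and the arrays quantile normalized over 20166 gene probes (8 with poor spots left out). This was preferred to limma's normexp on the local background because that background followed the spot signal (r = 0.94 to 0.95 over probes, log2). An additive limma model was fitted to 14254 probes detected on at least 2 arrays, with 1 residual degree of freedom. It held IPTG and zinc, with an intensity trend and robust prior, two-sided, at a Benjamini-Hochberg threshold of 0.05. A run on simulated arrays drew independent noise, scaled by intensity from these same arrays, so it cannot vouch for the calls made here. Nothing in the labels says whether cultures were repeated, so p-values do not measure the spread between cultures. The error behind them joins the spread of a probe over these 4 arrays with the variance prior from all probes tested. The number of arrays limits precision.

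The text names all 6 genes found. Probes most like them, and 10 gene lists, could not be named because no table used here pairs Ensembl identifiers with symbols (0 reference entries hold one), and they were not analysed here. Software was R 4.3.3, limma 3.58.1, Python 3.11.15 and pandas 2.3.3.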

Additional observations from a re-analysis of the deposited data

Results flagged for a closer look

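The zinc difference went one way without IPTG and the other way with IPTG for 4 of the genes. The share of all probes with opposite signs was not computed, so this count is not shown to be particular to these genes. On the log2 scale it was -0.34 and 0.79 for Cat, 0.42 and -0.70 for Gclc, -0.17 and 0.38 for Gclm, and -0.24 and 0.27 for Nqo1. With the local background subtracted, only Gclc and Gclm kept opposite signs, while Cat was at 0.09 and 0.22 and Nqo1 at 0.35 and 1.48. The IPTG difference changed sign with zinc for Gclc, at 0.81 without zinc and -0.31 with it. With 1 array per condition these differences between pairs were not tested, and all of them use the same 4 arrays.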

How the results depend on the processing

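Results were recomputed with normexp on the local background, with no background subtraction, an offset of 16, median scaling, the deposited table and, chosen after seeing the data, with block medians subtracted; limma was also run without a filter on dim probes, on probes detected on all 4 arrays and with a constant prior. The number of genes past 1.5-fold with IPTG in both pairs, 2, went to 1 with median scaling, in the deposited table and with a fold limit of 2. In the deposited table the median IPTG difference of all probes was 0.34 without zinc and 0.29 with zinc, and relative to these Cat was 1.75-fold lower with zinc. The count for zinc, 0, went to 1 (Sod1) with the local background. The 1327 probes called for IPTG became 2 without the filter, for a reason that was not tested. They became 0 with the constant prior (2966 at an unadjusted p under 0.05 in limma). The same prior also called 0 for zinc (222 unadjusted). Hmox1 had an adjusted p of 0.122 and Cat of 0.245 with the constant prior, and both of 1 without the filter. Over the 10 settings the mean log2 IPTG difference ranged from 0.91 to 1.88 for Hmox1 and from -1.94 to -1.18 for Cat. The settings that changed only the probe filter or the prior cannot alter this mean, and they repeat the main values of 1.27 and -1.35. The mean zinc difference turned to -0.17 for Nqo1 in the deposited table, and to -0.13 for Gclm and 1.68 for Sod1 with the local background. Where no value is given for a cause, the cause was not tested. No paired analysis was possible because each condition has 1 array and the labels give no replicate numbers.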
